A study of Mus musculus with 6 samples.

Results

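The collagen chain genes are the genes whose products wind together into the rope-like helices of the extracellular matrix. They were taken as every row of the deposited gene table whose symbol has the form Col, a number, a, and a number, which gave 44 genes of 52550 rows. Left ventricles of C57BL/6J mice at 12 months of age gave 6 RNA libraries, 3 named wild-type (WT) and 3 named as PGC1alpha overexpressed (PKI). How PGC1alpha was overexpressed, in which cells and in how many animals, is not given in the sources used here, and no agent or other allele is named for either group. Levels are in FPKM, which corrects fragments for transcript length and for the library's total, so different genes can be compared per length.

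A collagen molecule is made of 3 chains, each with long runs in which glycine alternates with a pair of other residues. Fibrillar collagens (types I, III and V in the heart) form the cable-like fibrils that fibroblasts lay down between cardiomyocytes. Network collagens form sheets, of which type IV is the scaffold of the basement membrane around cardiomyocytes and vessels, and type VIII is a short-chain collagen of vessels. FACIT collagens (fibril-associated collagens with interrupted helices) sit on the surface of fibrils, beaded collagens such as type VI form microfibrils between fibrils and cells, and transmembrane collagens are membrane-anchored. Collagens that fall under none of these (types VII, XV and XVIII) are kept here as a group called other. More fibrillar collagen is a known feature of the stressed or ageing heart.

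The gene stated as overexpressed was examined first. Ppargc1a (ENSMUSG00000029167) was at 14.2, 12.8 and 12.4 FPKM in WT and at 11.6, 11.8 and 11.4 FPKM in the libraries labelled PKI, so it was not higher there (log2 −0.16, SE 0.07, limma adjusted p = 0.0967). After the scaling described below it was lower (log2 −0.44, adjusted p = 0.00521). All directions below are therefore those of libraries labelled PKI. The depth of the libraries is unknown. Across genes, the lowest correlation within a group was 0.982 and the highest between groups 0.974. Among tested genes (a mean of at least 1 FPKM), 36.4% were called higher and 2.96% lower in libraries labelled PKI at a limma adjusted p under 0.05, with a median log2 change of 0.21. After dividing by median-of-ratios size factors (0.898 to 0.922 in WT, 1.102 to 1.133 in libraries labelled PKI), 7.82% were higher and 9.18% lower with a median of −0.02. Changes of the tested chains and class sums are therefore given also after this scaling. Folds of other genes are as deposited, with the adjusted p after scaling beside them for named pathway genes. Atrial myosin genes, which ventricular tissue should hold little of, differed between libraries of the same group: Myl7 was at 74.3, 40.5 and 91.3 FPKM in WT and 6.61, 14.8 and 81.9 FPKM in libraries labelled PKI. The labels do not say that the libraries of a group come from separate animals, so the spread behind each p-value may be only technical.

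Collagen chains were expressed at 75.9 to 88.1 FPKM in all in WT and at 198 to 257 FPKM in libraries labelled PKI, 2.76-fold higher on average (2.24-fold after scaling). Of the 44 genes, 17 reached the mean of 1 FPKM needed for testing, 24 were above 0 but under that mean, and 3 (Col2a1, Col9a1 and Col10a1, chains of cartilage) were listed at 0 in every library. All 17 tested chains were called higher in libraries labelled PKI, beside 36.4% of all tested genes, and 16 after scaling, beside 7.82%. In all 17 each library labelled PKI lay above each WT library, beside 51.3% of tested genes (4.53% lay entirely below), and in 16 after scaling, beside 16.6%. Col16a1 and Col18a1 averaged under 1 FPKM in WT and were tested only because of their level in libraries labelled PKI, so they had to differ. The other 15 averaged 1 FPKM or more in WT too, and of these 15 were called higher as deposited and 14 after scaling. Of all 9356 tested genes with that WT level, 3291 were called higher as deposited and 621 after scaling. Fold values of the 17 ran from 1.66 (Col5a3) to 7.36 (Col8a1), and their median log2 change was 1.15 (0.93 after scaling) against 0.21 (−0.02) for all tested genes.

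**Figure D1:**
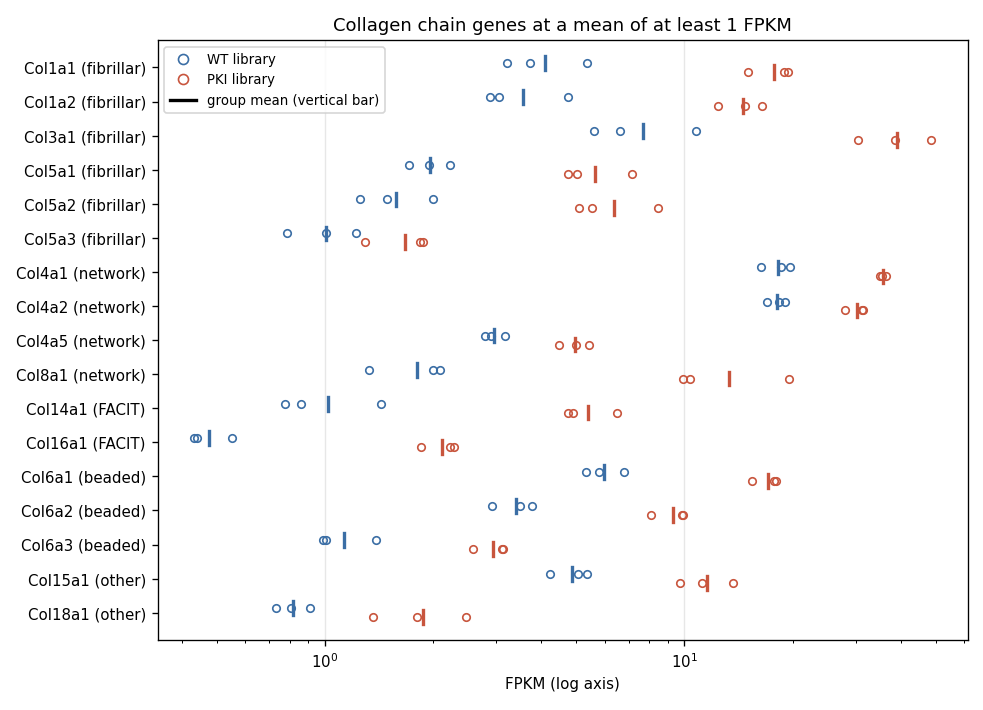
FPKM of the 17 tested collagen chain genes (log axis), one open circle per library (blue WT, red libraries labelled PKI, 3 each), with the group mean as a vertical bar; the class stands after each name. For each of the 17 genes the 3 libraries labelled PKI lie above the 3 WT libraries, with the narrowest gap in Col5a3.

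The fibrillar chains of types I and III, the bulk material of cardiac fibrils, were about 4.08 to 5.11 times as high in libraries labelled PKI. Col1a1 (ENSMUSG00000001506, chromosome 11: 94936224 to 94953042, GRCm38), a chain of type I, was at 5.35, 3.72 and 3.205 FPKM in WT replicates 1, 2 and 3 and 18.9, 19.4 and 15.04 FPKM in the libraries labelled PKI 1, 2 and 3. The highest WT value, of replicate 1, was well under the lowest value of a library labelled PKI, of replicate 3. Col1a1 rose 4.34-fold (log2 1.90, SE 0.17, limma adjusted p = 0.000757), and its log2 change was 1.63 after scaling, adjusted p = 0.00143. Its partner chain in type I, Col1a2 (ENSMUSG00000029661, chromosome 6: 4504814 to 4541544), was at 4.75, 3.05 and 2.88 FPKM in WT and 14.8, 16.4 and 12.4 FPKM in libraries labelled PKI. It rose 4.08-fold (log2 1.78, SE 0.17, limma adjusted p = 0.000872; 1.53 after scaling, adjusted p = 0.00165), with the same order of libraries within WT as Col1a1. Col3a1 (ENSMUSG00000026043, chromosome 1: 45311538 to 45349706), the only chain of type III and a partner of type I in the fibrils of elastic tissue, was at 10.8, 5.597 and 6.63 FPKM in WT and 38.5, 48.5 and 30.4 FPKM in libraries labelled PKI. This was the largest rise among the fibrillar chains, 5.11-fold (log2 2.23, SE 0.24, limma adjusted p = 0.00125; 1.95 after scaling, adjusted p = 0.00244). By group mean, Col3a1 ranked below Col4a1 and Col4a2 in WT, ahead of the other chains, and first in libraries labelled PKI. Single libraries departed from this: Col3a1 was below Col4a1 in PKI 3 (30.4 against 35.5 FPKM). It was also below Col6a1 in WT 2 (5.597 against 5.803 FPKM).

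Type V collagen is a minor component that is built into type I fibrils and sets their diameter. Col5a1 (ENSMUSG00000026837, chromosome 2: 27886425 to 28039514), which every common form of type V contains, was at 2.23, 1.94 and 1.72 FPKM in WT and 5.03, 7.16 and 4.75 FPKM in libraries labelled PKI and rose 2.88-fold (log2 1.15, SE 0.14, limma adjusted p = 0.00198; 0.92 after scaling, adjusted p = 0.00521). Col5a2 (ENSMUSG00000026042, chromosome 1: 45374321 to 45503282), its usual partner, was at 2.004, 1.49 and 1.25 FPKM in WT and 5.102, 8.47 and 5.52 FPKM in libraries labelled PKI and rose 4.03-fold (log2 1.50, SE 0.18, limma adjusted p = 0.00192; 1.27 after scaling, adjusted p = 0.00436). Col5a1 was above Col5a2 in each WT library and below it in each library labelled PKI. Col5a3, a chain of a less common form of type V, was at 0.783, 1.22 and 1.01 FPKM in WT and 1.88, 1.84 and 1.29 FPKM in libraries labelled PKI, with no overlap but a narrow gap. It rose as deposited (log2 0.41, SE 0.12, limma adjusted p = 0.0355), but passed the test in 5 of 16 alternative fits only, and after scaling its log2 change was 0.24 (adjusted p = 0.227) with overlapping groups.

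Promoter windows are shown for the members whose values the text turns on, taken from RefSeq (GRCm38.p6): 250 bases before to 50 bases after the RefSeq start of the gene, 5′ to 3′ on the gene's own strand. Windows were found for 35 of the 44 genes and for 14 of the 17 tested genes (16 windows, as Col6a2 and Col18a1 have more than 1). Col1a1, Col5a2 and Col14a1 were not matched. Positions are counted from that start, with 1 its first base and no 0. RefSeq and GENCODE place the start of Col1a2 differently. Its window (from base 4505368) therefore lies inside the gene range given above (from base 4504814). Capitals mark exact matches, on either strand, of 4 motifs. The first is CCAAT, a common element near starts. The second is TATAAA, the TATA element. The third is GGGCGG, known from GC-rich starts. The fourth is TGANTCA (N any base), known for factors of the AP-1 family. A match is a description of letters and not evidence of binding. The windows of the fibrillar chains Col1a2 (chr6:4505368-4505667, plus strand) and Col3a1 (chr1:45311288-45311587, plus strand) are:
Col1a2: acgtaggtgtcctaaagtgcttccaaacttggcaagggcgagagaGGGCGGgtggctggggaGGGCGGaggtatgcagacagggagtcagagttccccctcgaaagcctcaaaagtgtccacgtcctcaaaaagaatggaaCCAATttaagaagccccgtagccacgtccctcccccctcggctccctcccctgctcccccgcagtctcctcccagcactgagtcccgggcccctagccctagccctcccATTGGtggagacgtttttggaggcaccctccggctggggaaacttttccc
Col3a1: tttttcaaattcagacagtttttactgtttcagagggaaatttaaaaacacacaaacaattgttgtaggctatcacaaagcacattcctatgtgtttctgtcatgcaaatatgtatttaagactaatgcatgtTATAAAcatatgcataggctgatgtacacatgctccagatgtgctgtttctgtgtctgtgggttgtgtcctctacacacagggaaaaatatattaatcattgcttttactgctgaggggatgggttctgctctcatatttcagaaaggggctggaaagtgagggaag
Col1a2 holds CCAAT at −109 to −105 on the gene's strand and at 1 to 5 on the other strand, and GGGCGG at −205 to −200 and −188 to −183. Col3a1 holds TATAAA at −117 to −112 and none of the other 3 motifs. The windows differ in base composition, at 61.0% G and C in Col1a2 and 37.7% in Col3a1. Of all 32851 windows of the RefSeq table, 37.4% hold CCAAT, 13.6% TATAAA, 35.7% GGGCGG and 7.81% TGANTCA. Among the 16 windows of tested collagen genes, 7 hold CCAAT, 1 TATAAA, 11 GGGCGG and 1 TGANTCA (Col6a1).

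Of the chains that accompany fibrils, 2 of 9 FACIT and 3 of 8 beaded chains reached the level for testing. All of these were called higher, also after scaling, beside 36.4% of all tested genes (7.82% after scaling). The FACIT chain Col16a1 averaged under 1 FPKM in WT and so had to differ. Col14a1 (ENSMUSG00000022371, chromosome 15: 55307750 to 55520803), a FACIT collagen found on fibrils of mechanically loaded tissue, was at 1.43, 0.858 and 0.774 FPKM in WT and 4.91, 6.49 and 4.76 FPKM in libraries labelled PKI and rose 5.27-fold (log2 1.66, SE 0.15, limma adjusted p = 0.000837; 1.46 after scaling, adjusted p = 0.00147). Col16a1, a FACIT collagen of small fibrils near cells, was at 0.434, 0.442 and 0.552 FPKM in WT and 2.22, 2.29 and 1.85 FPKM in libraries labelled PKI. Its 3 libraries of a group lay close together, and the difference was 4.46-fold (log2 1.08, SE 0.09, limma adjusted p = 0.000625; 0.93 after scaling, adjusted p = 0.00122).

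Type VI collagen, the beaded microfibril that links cells to the fibrillar matrix, is built mainly from Col6a1, Col6a2 and Col6a3. Col6a1 (ENSMUSG00000001119, chromosome 10: 76708792 to 76726168) was at 6.78, 5.803 and 5.34 FPKM in WT and 17.8, 17.9 and 15.4 FPKM in libraries labelled PKI and had the smallest adjusted p of the 44 genes (2.85-fold; log2 1.37, SE 0.10, limma adjusted p = 0.000473; 1.10 after scaling, adjusted p = 0.00111). Col6a2 went from 3.39 ± 0.434 to 9.28 ± 1.05 FPKM (SD, n = 3 each), 2.73-fold higher (log2 1.23, limma adjusted p = 0.000757; 0.97 after scaling, adjusted p = 0.00155). Col6a3 went from 1.13 ± 0.225 to 2.94 ± 0.315 FPKM (SD, n = 3 each), 2.61-fold higher (log2 0.89, limma adjusted p = 0.00156; 0.70 after scaling, adjusted p = 0.00461). The folds of the 3 chains thus lay between 2.61 and 2.85. Col6a6, an alternative to Col6a3 in some tissues, stayed under the level for testing and did not share this pattern, at 0.903, 0.662 and 0.8102 FPKM in WT and 0.735, 0.778 and 0.455 FPKM in libraries labelled PKI. Its groups overlapped as deposited, while after scaling each library labelled PKI lay below each WT library (adjusted p = 0.285 in a fit without the minimum). Col6a5 was listed at 0 in WT and at 0.0272, 0.0498 and 0.0107 FPKM in libraries labelled PKI, and Col6a4 was above 0 in 1 library, at 0.00595.

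**Figure D2:**
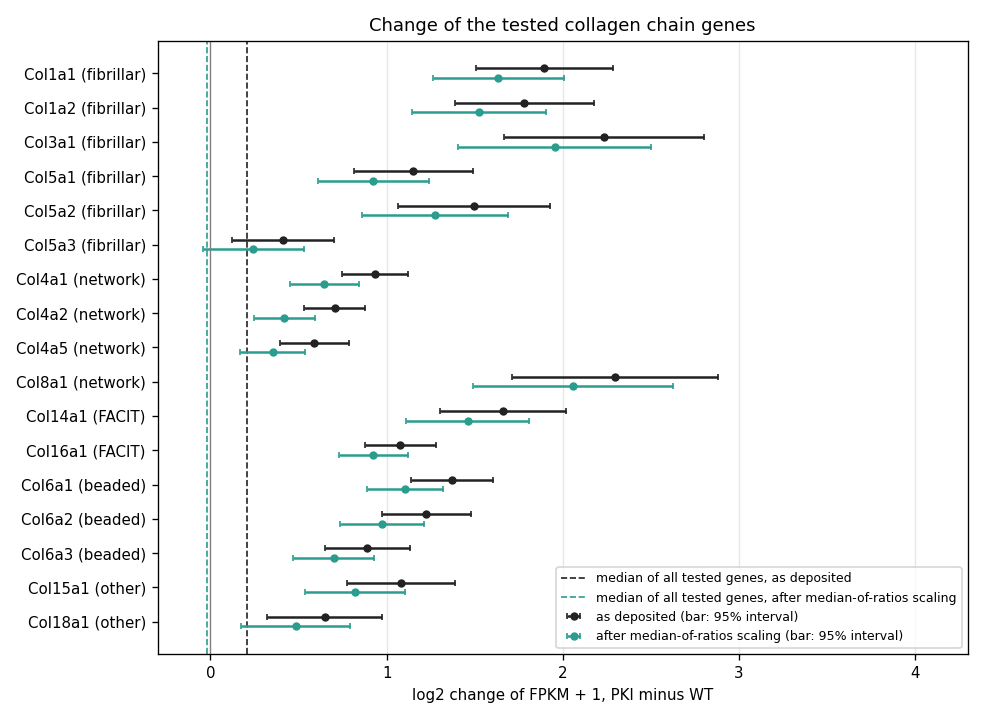
Log2 change of FPKM + 1 (libraries labelled PKI minus WT) of the 17 tested collagen chain genes, as deposited (black) and after median-of-ratios scaling (green), with 95% intervals from limma; dashed lines mark the medians of all tested genes (0.21 and −0.02). Col8a1 (2.30) and Col3a1 (2.23) lie farthest to the right, and the scaled interval of Col5a3 includes 0.

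Network collagens differed among themselves, from 1.67-fold in a type IV chain to 7.36-fold in type VIII. The main basement membrane chains Col4a1 (ENSMUSG00000031502, chromosome 8: 11198423 to 11312826) and Col4a2 (ENSMUSG00000031503, chromosome 8: 11312805 to 11449287) had the highest levels of all collagen genes in WT. Col4a1 was at 16.3, 19.7 and 18.6 FPKM in WT and 35.02, 36.3 and 35.5 FPKM in libraries labelled PKI. Col4a2, which joins with Col4a1 in the common type IV molecule, was at 17.04, 19.1 and 18.4 FPKM in WT and 31.5, 31.2 and 28.1 FPKM in libraries labelled PKI. The libraries of each group lay within a narrow band for both genes, with a clear gap between the groups. Col4a1 rose 1.95-fold (log2 0.93, SE 0.08, limma adjusted p = 0.000716; 0.65 after scaling, adjusted p = 0.00339) and Col4a2 1.67-fold (log2 0.71, SE 0.07, limma adjusted p = 0.00112; 0.42 after scaling, adjusted p = 0.0104). Col4a5, a chain of the rarer type IV molecules on the X chromosome, was at 3.18, 2.79 and 2.902 FPKM in WT and 4.495, 5.42 and 4.98 FPKM in libraries labelled PKI and rose 1.68-fold (log2 0.59, SE 0.08, limma adjusted p = 0.00307; 0.35 after scaling, adjusted p = 0.0233).

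The largest fold among the 17 tested chains was in type VIII collagen. Col8a1 (ENSMUSG00000068196, chromosome 16: 57624258 to 57754737) was at 2.09, 1.99 and 1.33 FPKM in WT replicates 1, 2 and 3 and 9.94, 19.5 and 10.3 FPKM in the libraries labelled PKI 1, 2 and 3. The libraries labelled PKI spread from 9.94 to 19.5, and even the lowest was far above the WT range. The rise was 7.36-fold (log2 2.30, SE 0.25, limma adjusted p = 0.00125; 2.06 after scaling, adjusted p = 0.00226); without the library labelled PKI 2, its log2 change was 2.002. Its partner chain Col8a2, at 0.134, 0.0962 and 0.0728 FPKM in WT and 0.637, 0.843 and 0.635 FPKM in libraries labelled PKI, stayed under the level for testing but showed a gap of the same kind. In the fit without a minimum it was called higher (limma adjusted p = 0.00675; 0.0112 after scaling).

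Type IV genes lie in head-to-head pairs, and the windows of Col4a1 (chr8:11312777-11313076, minus strand) and Col4a2 (chr8:11312555-11312854, plus strand) share 78 bases. They are shown with that of Col8a1 (chr16:57754688-57754987, minus strand), the tested chain with the largest fold:
Col4a1: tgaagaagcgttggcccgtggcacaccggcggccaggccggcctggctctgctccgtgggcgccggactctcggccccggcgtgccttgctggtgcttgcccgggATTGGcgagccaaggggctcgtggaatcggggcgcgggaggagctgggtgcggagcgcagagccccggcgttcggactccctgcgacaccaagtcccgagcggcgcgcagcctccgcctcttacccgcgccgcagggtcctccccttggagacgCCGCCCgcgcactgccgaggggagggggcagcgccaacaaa
Col4a2: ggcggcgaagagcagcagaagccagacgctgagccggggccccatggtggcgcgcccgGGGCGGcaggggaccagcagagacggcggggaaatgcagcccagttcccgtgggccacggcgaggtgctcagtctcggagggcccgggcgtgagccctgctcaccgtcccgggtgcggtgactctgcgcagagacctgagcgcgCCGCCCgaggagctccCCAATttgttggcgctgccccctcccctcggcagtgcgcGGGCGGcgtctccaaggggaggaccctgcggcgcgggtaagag
Col8a1: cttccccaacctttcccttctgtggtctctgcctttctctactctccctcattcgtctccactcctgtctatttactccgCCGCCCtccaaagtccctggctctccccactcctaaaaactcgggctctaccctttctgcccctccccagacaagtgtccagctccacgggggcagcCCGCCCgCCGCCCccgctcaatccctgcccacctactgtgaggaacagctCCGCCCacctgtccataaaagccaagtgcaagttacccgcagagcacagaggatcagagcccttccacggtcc
In GENCODE M21 the genes Col4a1 and Col4a2 overlap by 22 bases at their starts, and the GGGCGG at chr8:11312812-11312817 falls in both windows, on the strand of Col4a2. The library kit does not mark strand, and how reads within the 22 bases were assigned is unknown. Col4a1 holds CCAAT at −145 to −141 on the other strand and Col4a2 at −32 to −28 on its own. Col8a1 holds 4 GGGCGG, each on the other strand, and no CCAAT. Col4a3 and Col4a4 lie head to head 71 bases apart, and Col4a5 and Col4a6 1308 bases apart. Col4a3 was at 0.206, 0.203 and 0.2202 FPKM in WT and 0.533, 0.796 and 0.443 FPKM in libraries labelled PKI and Col4a4 at 0.535, 0.4602 and 0.282 FPKM in WT and 0.946, 1.21 and 0.862 FPKM in libraries labelled PKI, without overlap in either gene. Col4a6 was far below its neighbour Col4a5, at 0.2298, 0.0852 and 0.126 FPKM in WT and 0.314, 0.551 and 0.194 FPKM in libraries labelled PKI, with overlapping groups.

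Col15a1 and Col18a1 encode collagens of the basement membrane zone whose C-terminal fragments (restin and endostatin) are known to act on vessels. Col15a1 (ENSMUSG00000028339, chromosome 4: 47208161 to 47313167), which anchors basement membranes to the fibrillar matrix in muscle and capillaries, was at 5.36, 5.06 and 4.23 FPKM in WT and 11.2, 13.7 and 9.72 FPKM in libraries labelled PKI and rose 2.36-fold (log2 1.08, SE 0.13, limma adjusted p = 0.00182; 0.82 after scaling, adjusted p = 0.00547). Col18a1 was at 0.907, 0.806 and 0.733 FPKM in WT and 1.36, 2.47 and 1.804 FPKM in libraries labelled PKI, 2.31-fold higher (log2 0.65, SE 0.14, limma adjusted p = 0.0123; 0.48 after scaling, adjusted p = 0.0467). Its call after scaling was close to the threshold and was lost with quantile normalisation (adjusted p = 0.0681). Col7a1, the anchoring fibril of skin, did not exceed 0.0382 FPKM.

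Of the 24 chains above 0 and under the mean of 1 FPKM, 12 had every library labelled PKI above every WT library, 0 had every one below, and 12 overlapped. Among all genes in that range, 15.2% lay above and 2.30% below. In a fit without the minimum, 6 of the 24 were called higher, beside 3.46% of all genes in that range (11.1% of all genes fitted): Col27a1, Col4a3, Col4a4, Col8a2, Col20a1 and Col28a1. With scaling added, which was chosen after seeing the data, 1 of the 24 remained, Col8a2, beside 0.912% of that range (2.31% of all genes fitted). Of the low fibrillar chains, Col27a1, a collagen of cartilage and developing tissue, was at 0.224, 0.145 and 0.08799 FPKM in WT and 0.503, 0.387 and 0.482 FPKM in libraries labelled PKI. Of the low FACIT chains, Col12a1, which is made in loaded connective tissue, was at 0.0765, 0.0815 and 0.0512 FPKM in WT and 0.214, 0.715 and 0.3701 FPKM in libraries labelled PKI. All 3 libraries labelled PKI were above WT but far apart from each other, and it was not called (limma adjusted p = 0.0913). Col28a1, a beaded-type collagen known from peripheral nerve, was at 0.229, 0.136 and 0.156 FPKM in WT and 0.426, 0.413 and 0.432 FPKM in libraries labelled PKI.

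None of the 4 transmembrane chains reached the level for testing. Without the minimum none was called higher, beside 3.46% of all genes above 0 and under that mean. In all 4 the groups overlapped as deposited, as they did in 12215 of all 14798 genes in that range. Col23a1, the highest of them, was at 0.405, 0.385 and 0.369 FPKM in WT and 0.387, 0.334 and 0.306 FPKM in libraries labelled PKI (log2 −0.05, limma adjusted p = 0.541 without the minimum). Col13a1, found at the neuromuscular junction, was at 0.164, 0.242 and 0.0234 FPKM in WT and 0.0878, 0.305 and 0.111 FPKM in libraries labelled PKI, with overlap. Col17a1, a hemidesmosome protein of skin, and Col25a1 were at most 0.0276 and 0.0342 FPKM. All 4 transmembrane chains together summed to 0.59, 0.628 and 0.421 FPKM in WT and 0.509, 0.672 and 0.446 FPKM in libraries labelled PKI. After scaling, each library labelled PKI lay below each WT library for Col23a1, which was not called (adjusted p = 0.201). The remaining low chains reached at most 0.445 (Col20a1), 0.24 (Col9a2), 0.204 (Col22a1), 0.138 (Col11a2), 0.0279 (Col11a1), 0.02598 (Col24a1), 0.02298 (Col9a3), 0.0201 (Col19a1) and 0.0124 FPKM (Col26a1).

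**Figure D3:**
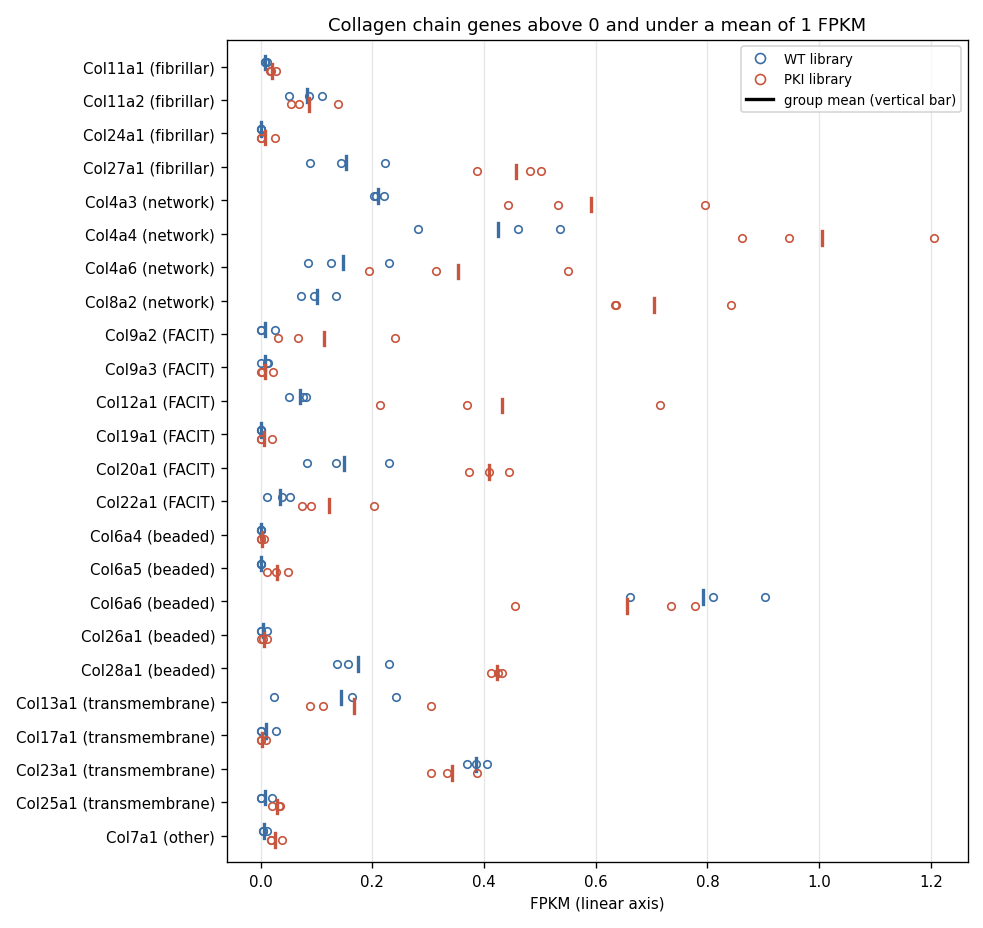
FPKM (linear axis) of the 24 collagen chain genes above 0 and under a mean of 1 FPKM, one open circle per library (blue WT, red libraries labelled PKI) with group means as vertical bars. In 12 of the 24 genes the groups are apart, among them Col8a2, Col4a4, Col4a3, Col27a1, Col20a1 and Col28a1. Of all genes in that range, 15.2% have every library labelled PKI above every WT library. The transmembrane chains show no gap.

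By class, the sums moved unequally. Fibrillar chains added up to 26.2, 17.3 and 16.8 FPKM in WT and 84.7, 102 and 70.03 FPKM in libraries labelled PKI, 4.26-fold higher (3.47-fold after scaling). Network chains added up to 39.7, 44.4 and 41.9 and 83.4, 95.9 and 81 FPKM, 2.06-fold higher (1.68-fold after scaling). The corresponding folds were 4.87 (3.96 after scaling) for FACIT, 2.65 (2.16 after scaling) for beaded and 2.36 (1.91 after scaling) for the other chains. The transmembrane sum, under 1 FPKM in every library, had a fold of 0.993 (0.807 after scaling). Its mean share of collagen FPKM was 0.667% in WT and 0.239% in libraries labelled PKI. As a share of all collagen FPKM in a library, the fibrillar chains made up 29.7, 21.4 and 22.2% in the WT libraries and 38.3, 39.8 and 35.4% in libraries labelled PKI. The network chains made up 45.1, 54.9 and 55.2% and 37.7, 37.2 and 40.97%. In WT the network chains were ahead of the fibrillar chains in every library, while in libraries labelled PKI both classes were close and the order varied. The share of beaded chains overlapped between the groups, at 14.8, 13.8 and 13.5% and 14.5, 12.5 and 13.6%. These shares are sums over members and were not tested.

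**Figure D4:**
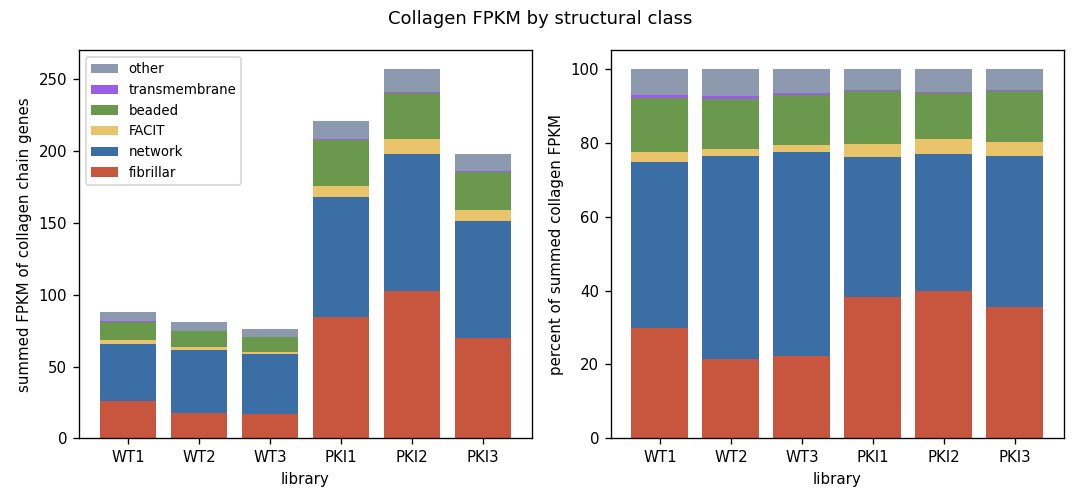
Stacked bars of the summed FPKM of collagen chain genes by structural class in each of the 6 libraries (left, FPKM) and as a percent of the summed collagen FPKM of the library (right). The highest WT total is 88.1 FPKM and the lowest of the libraries labelled PKI is 198 FPKM, where the fibrillar share is larger and the network share smaller.

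Ratios between chains within a library do not depend on how libraries are scaled. A set of 10 ratios was compared by an exact two-sided permutation test, in which 3 against 3 cannot give a p under 0.1, so none could pass. The chains of type I kept close to the same ratio: Col1a1 over Col1a2 was 1.13, 1.22 and 1.11 in the WT libraries and 1.28, 1.18 and 1.21 in libraries labelled PKI (log2 difference 0.09, exact p = 0.3, adjusted 0.375). Col6a1 over Col6a2 likewise overlapped, at 1.8, 1.66 and 1.83 in the WT libraries and 1.8, 1.81 and 1.91 in libraries labelled PKI (log2 difference 0.06, exact p = 0.4, adjusted 0.4). Col6a3 over Col6a1, at 0.205, 0.174 and 0.185 in the WT libraries and 0.176, 0.174 and 0.167 in libraries labelled PKI (log2 difference −0.12, exact p = 0.2, adjusted 0.333), and Col3a1 over Col1a1, at 2.01, 1.51 and 2.07 in the WT libraries and 2.04, 2.51 and 2.02 in libraries labelled PKI (log2 difference 0.24, exact p = 0.4, adjusted 0.4), overlapped as well. The groups were apart for 3 ratios of chains that assemble together. How often the ratios of other gene pairs lie apart was not counted, so this separation is a description only, also for the ratios between classes. Col5a1 over Col5a2 was 1.11, 1.31 and 1.37 in the WT libraries and 0.986, 0.845 and 0.861 in libraries labelled PKI (log2 difference −0.49, exact p = 0.1, adjusted 0.2). Col5a1 over Col1a1, type V against type I, was 0.417, 0.523 and 0.536 in the WT libraries and 0.266, 0.3696 and 0.316 in libraries labelled PKI (log2 difference −0.64, exact p = 0.1, adjusted 0.2). Col4a1 over Col4a2 was 0.956, 1.03 and 1.01 in the WT libraries and 1.11, 1.17 and 1.26 in libraries labelled PKI (log2 difference 0.24, exact p = 0.1, adjusted 0.2). Between classes, Col1a1 over Col4a1 was 0.328, 0.188 and 0.172 in the WT libraries and 0.539, 0.533 and 0.424 in libraries labelled PKI (log2 difference 1.17, exact p = 0.1, adjusted 0.2). Col8a1 over Col4a1 was 0.128, 0.101 and 0.0713 in the WT libraries and 0.284, 0.538 and 0.292 in libraries labelled PKI (log2 difference 1.86, exact p = 0.1, adjusted 0.2), and Col15a1 over Col4a1 overlapped, at 0.329, 0.256 and 0.227 in the WT libraries and 0.3199, 0.376 and 0.274 in libraries labelled PKI (log2 difference 0.26, exact p = 0.3, adjusted 0.375). All 10 differences kept their direction when any library was left out.

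**Figure D5:**
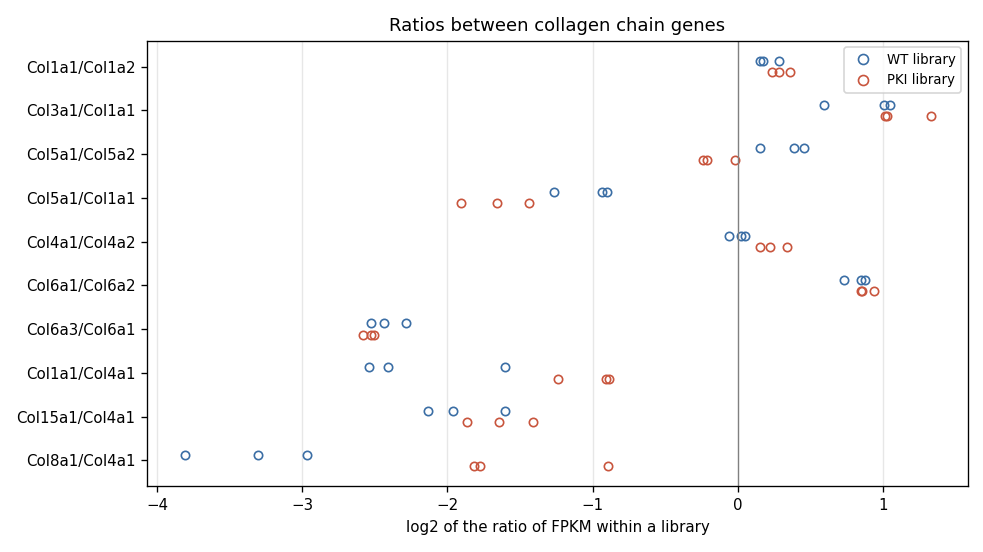
Log2 of the ratio of FPKM between collagen chain genes within each library (blue WT, red libraries labelled PKI; 0 is equal level). Groups are apart for Col5a1/Col5a2, Col5a1/Col1a1, Col4a1/Col4a2, Col1a1/Col4a1 and Col8a1/Col4a1 and overlap for the other 5.

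Within a group, the tested chains as deposited tended to be high or low in the same libraries. Among libraries labelled PKI, replicate 2 had the highest value for 14 of the 17 chains (42.5% of all tested genes) and replicate 3 the lowest for 12 (34.5%). Within WT, replicate 1 was highest for 13 of the 17 (41.3%). The 4 exceptions in WT were Col4a1, Col4a2, Col5a3 and Col16a1, in each of which replicate 1 was the lowest. The size factors had the same order. They were highest in PKI 2 (1.133) and lowest in PKI 3 (1.102) of that group, and highest in WT 1 (0.922) of WT. Whether the order of the chains holds after scaling was not counted. Leaving out any 1 library left 16 or 17 of the 17 called higher, beside 22 to 31.9% of all tested genes. Col16a1 and Col18a1, which had to differ, are among the 17. The chain lost was Col5a3 each time (without WT 1, WT 3, PKI 1 or PKI 2).

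Genes that build, cross-link, bind and degrade collagen were counted from lists that hold none of the chains. Of 71 tested genes in all, 58 were called higher (37 after scaling), beside 36.4% (7.82%) of all tested genes, and 2 lower (3 after scaling), beside 2.96% (9.18%). Of the 71, 9 (P3h2, P3h3, Colgalt2, Creb3l1, Adamts2, Lox, Loxl3, Mrc2 and Timp1) averaged under 1 FPKM in WT and were tested only through their level in libraries labelled PKI. Among the other 62, 50 were higher (31 after scaling) and 2 lower (3 after scaling). Of all 9356 tested genes averaging 1 FPKM or more in WT, 3291 were higher (621 after scaling) and 293 lower (909 after scaling). Chain folding and modification enzymes were higher in 16 of 21 (4 after scaling) and lower in 1 (1 after scaling). P4hb, a subunit of the prolyl hydroxylase that stabilises the helix, rose 1.68-fold, adjusted p = 0.00136, 0.01 after scaling. The proline isomerase gene Ppib rose 1.64-fold, adjusted p = 0.0026, 0.025 after scaling, and P4ha1, the catalytic subunit of the same hydroxylase, 2.12-fold, adjusted p = 0.00318, 0.0136 after scaling. The log2 changes of P4hb, Ppib and P4ha1 were 0.74, 0.64 and 0.95 as deposited and 0.45, 0.37 and 0.70 after scaling. Serpinh1, which encodes a collagen chaperone, was at 30.8, 20.5 and 24.6 FPKM in WT and 28.3, 45.5 and 22.7 FPKM in libraries labelled PKI, with overlap and no call (adjusted p = 0.372, 0.989 after scaling). The member called lower was P3h4, a partner of the prolyl and lysyl hydroxylases, at 5.89, 5.36 and 5.34 FPKM in WT and 4.45, 3.43 and 3.75 FPKM in libraries labelled PKI (adjusted p = 0.013, 0.00409 after scaling). Serpinh1, P3h4 and Timp4 were singled out after their values were seen.

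The counts of this paragraph stand beside 36.4% of all tested genes called higher (7.82% after scaling). All 4 tested genes of propeptide removal were higher, also after scaling, and 3 of them averaged 1 FPKM or more in WT. The exception, Adamts2, the protease that removes the N-terminal propeptide, was tested only through libraries labelled PKI and so had to differ, at 1.05, 0.773 and 0.908 FPKM in WT and 4.199, 4.92 and 3.596 FPKM in libraries labelled PKI (4.67-fold, adjusted p = 0.000536, 0.00111 after scaling). Bmp1, the C-propeptide protease, rose 2.37-fold, adjusted p = 0.000473, 0.00122 after scaling, and Pcolce, its enhancer, 3.29-fold, adjusted p = 0.00064, 0.00145 after scaling. All 5 tested cross-linking genes were higher, also after scaling, of which Lox and Loxl3 averaged under 1 FPKM in WT. The lysyl oxidase genes Loxl1 and Loxl2 rose 3.17-fold, adjusted p = 0.000536, 0.00122 after scaling, and 3.38-fold, adjusted p = 0.00226, 0.00521 after scaling. The transglutaminase gene Tgm2 rose 1.86-fold, adjusted p = 0.000409, 0.00147 after scaling. Fibril partners were higher in 13 of 15 (11 after scaling). Bgn, a small proteoglycan that binds fibrils, rose 4.43-fold, adjusted p = 0.000473, 0.00101 after scaling. The collagen-binding Sparc rose 2.601-fold, adjusted p = 0.000643, 0.00143 after scaling, and Postn, a matrix protein of activated fibroblasts, 12.97-fold, adjusted p = 0.000865, 0.00145 after scaling.

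All 5 tested genes of collagen receptors and uptake were higher (2 after scaling). This count and those below stand beside 36.4% of all tested genes called higher (7.82% after scaling) and 2.96% lower (9.18% after scaling). The uptake receptor gene Mrc2, which averaged under 1 FPKM in WT and had to differ, was 3.27-fold higher (adjusted p = 0.000964, 0.0023 after scaling). The receptor kinase gene Ddr1 rose 2.08-fold, adjusted p = 0.00178, 0.0101 after scaling, and the integrin gene Itga1 1.46-fold, adjusted p = 0.00848, 0.149 after scaling. The log2 change of Itga1 was 0.41 as deposited and 0.18 after scaling. Genes of collagen degradation and its inhibitors were higher in 8 of 10 (7 after scaling) and lower in 1 (1 after scaling). The latter was the inhibitor gene Timp4, at 1.63, 2.65 and 2.196 FPKM in WT and 1.25, 1.05 and 1.25 FPKM in libraries labelled PKI (adjusted p = 0.018, 0.0133 after scaling). The protease gene Ctsk rose 4.19-fold, adjusted p = 0.000301, 0.000673 after scaling, and the gelatinase gene Mmp2 3.598-fold, adjusted p = 0.00106, 0.00221 after scaling. The inhibitor gene Timp1, also tested only through libraries labelled PKI, was at 0.919, 0.184 and 0.769 FPKM in WT and 12.6, 10.97 and 8.34 FPKM in libraries labelled PKI (adjusted p = 0.000502, 0.00109 after scaling). Partners of type IV in the basement membrane were higher in 7 of 11 (4 higher and 1 lower after scaling). The laminin genes Lama4 and Lamc1 rose 1.599-fold, adjusted p = 0.00211, 0.0275 after scaling, and 1.89-fold, adjusted p = 0.00274, 0.0151 after scaling. The linker gene Nid1 rose 1.896-fold, adjusted p = 0.00261, 0.0127 after scaling. The log2 changes of Lama4, Lamc1 and Nid1 were 0.54, 0.85 and 0.87 as deposited and 0.30, 0.58 and 0.59 after scaling.

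Markers of cell types that the tissue could hold were counted in the same way, to be read beside the 36.4% of all tested genes called higher and 2.96% called lower (7.82% and 9.18% after scaling). All marker sums here and in the next paragraph are as deposited. Dividing by the size factors would raise the sums of WT and lower those of libraries labelled PKI. Of 11 fibroblast markers, 8 were called higher (7 after scaling), with a summed level of 271 to 406 FPKM in WT and 508 to 554 FPKM in libraries labelled PKI, and 0 were at 0. The lists share Dpt, Lum, Dcn, Ddr2, Postn and Comp with the pathway lists. Pdgfra, a defining fibroblast receptor, had an adjusted p of 0.0657, with 2.998, 1.67 and 2.22 FPKM in WT and 3.31, 3.91 and 2.92 FPKM in libraries labelled PKI. Of 7 markers of activated fibroblasts, 5 were tested and all 5 were higher (5 after scaling), with sums of 27.1 to 44.7 FPKM in WT and 109 to 193 FPKM in libraries labelled PKI. Endothelial and mural markers were near those shares as deposited. Of 10 endothelial markers, 3 were higher (0 higher and 1 lower after scaling), with sums of 86.5 to 89.9 FPKM in WT and 97.2 to 109 FPKM in libraries labelled PKI. Of 9 smooth muscle and pericyte markers, 8 were tested and 3 were higher (0 higher and 2 lower after scaling), with sums of 129.97 to 145 FPKM in WT and 162 to 187 FPKM in libraries labelled PKI. Macrophage markers were higher in 8 of 9 (7 after scaling), with sums of 70.98 to 109.96 FPKM in WT and 213 to 231 FPKM in libraries labelled PKI. In bulk tissue, more cells of a type and more RNA per cell cannot be told apart.

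The labelled tissue held its defining genes: the 9 cardiomyocyte markers summed to 10026 to 10849 FPKM in WT and 10228 to 11120.3 FPKM in libraries labelled PKI, with 2 higher and 4 lower (0 and 7 after scaling). Of 5 atrial markers, 1 was higher (1 after scaling), Nppa, which ventricles also express under load, at 233, 209.8 and 339 FPKM in WT and 654, 1477 and 1134 FPKM in libraries labelled PKI. The other 4, Myl7, Sln, Myl4 and Myl1, had log2 changes of −1.62, −1.72, −1.49 and −0.11 and were not called, so the median of the list was −1.49. The list summed to 276 to 482 FPKM in WT and 672 to 1503 FPKM in libraries labelled PKI, most of which was Nppa. Cartilage and tendon markers were low, at 3.07 to 3.99 FPKM in WT and 4.501 to 7.68 FPKM in libraries labelled PKI in sum, with Matn1 at 0 and 1 of 2 tested higher, the tendon factor gene Scx at 1.34, 1.87 and 1.41 FPKM in WT and 2.94, 3.95 and 3.96 FPKM in libraries labelled PKI. Schwann cell and neuron markers summed to 1.51 to 1.94 FPKM in WT and 3.89 to 4.64 FPKM in libraries labelled PKI, with 1 tested and higher (Tubb3, under 1 FPKM in each WT library). Epicardial and mesothelial markers summed to 0.575 to 1.19 FPKM in WT and 0.874 to 1.84 FPKM in libraries labelled PKI. Adipocyte markers summed to 0.192 to 1.63 FPKM in WT and 1.19 to 5.17 FPKM in libraries labelled PKI. Lymphocyte markers summed to 0.104 to 0.317 FPKM in WT and 0.205 to 0.362 FPKM in libraries labelled PKI. Of these last lists 1 gene was tested and 0 were called. Skeletal muscle markers summed to 1.28 to 1.75 FPKM in WT and 6.44 to 9.85 FPKM in libraries labelled PKI, with Myog and Myh4 at 0 and 1 tested and higher (Mybpc2). Red blood cell markers were lower in 5 of 5 tested (5 after scaling), with sums of 379.96 to 538 FPKM in WT and 274 to 338 FPKM in libraries labelled PKI. The part of all these cells in the collagen differences was not tested.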

How the data were processed

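An Illumina TruSeq RNA kit was used on total RNA, per the labels' protocols. That kit is not strand-specific. The tools CASAVA and Bowtie 0.12.2 and the build mm9 are named, with no role, per the submitters' processing notes. The authors deposited FPKM per gene and library. How they were computed, and with which annotation, is not given in the sources used here. Each value is relative to its library's total, so a change in abundant genes shifts all others. Both deposited gene tables were identical, and the one with symbols was read. Low values did not pile up at whole multiples, and the depth is unknown.

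Titles of the samples gave the groups. Genes averaging 1 FPKM or more over all 6 libraries (9907) were tested on log2(FPKM + 1), which understates the change of low genes, with limma 3.58.1 in R 4.3.3 (variance trend, no block, two-sided, Benjamini-Hochberg over all tested genes, threshold 0.05). Fold values are ratios of mean FPKM, as deposited unless scaling is named. Every adjusted p is from limma unless named as exact; the exact p of the 10 ratios were adjusted over the 10. The fit was tested on simulated data.

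Positions are from GENCODE M21 (GRCm38) by identifier and were not converted. Chains were classed by collagen number, with types XXVI and XXVIII put with the beaded class. All 17 tested chains are named; of each pathway list the 3 genes with the smallest p. The members and lists were chosen with earlier results of these data known. Alternatives were other scalings, pseudocounts and filters, no trend, array weights, the replicate block and fits without each library in turn.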

Additional observations from a re-analysis of the deposited data

How the results depend on the processing

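Of 281 alternative fits of the 17 tested chains, 0 reversed a direction and 14 lost a call: Col5a3 in 11 of its 16, Col18a1 in 2 and Col4a5 in 1. At a minimum mean of 5 FPKM over the 6 libraries, 9 chains were tested and 9 were higher, beside 44.2% of all genes fitted. Of these 9, Col1a1, Col1a2, Col8a1, Col6a2 and Col15a1 averaged under 5 FPKM in WT. They passed that minimum only through libraries labelled PKI and so had to differ. Leaving out 1 library gave 16 to 17 chains higher and 0 lower, beside 22 to 31.9% of all tested genes higher. Under the replicate block 16 chains were higher, all but Col5a3 (adjusted p = 0.0539), beside 26.5% of all tested genes. The groups share replicate numbers in the labels, but deviations of same-numbered libraries correlated at −0.104, 0.00115 and 0.0529 across genes, so the numbers were not taken as pairs. For the 10 ratios the block cannot change the difference, and its smallest possible p is 0.25.

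Over all tested genes, counts higher and lower were 775 and 909 with size factors, 1019 and 603 when scaled to the total without mitochondrial genes and their copies, 753 and 762 with quantile normalisation, 1739 and 186 at a minimum of 5 FPKM, and 571 and 596 with no filter and size factors together (added after seeing the data). Leaving out 1 library gave 2179 to 3162 higher and 165 to 263 lower. Pathway genes higher were 37 with size factors, 37 with quantile normalisation, 31 at the minimum of 5 FPKM (0 lower) and 28 with no filter and size factors; leaving out 1 library gave 54 to 57 higher and 1 to 2 lower. Ppargc1a was lower with size factors (log2 −0.44, adjusted p = 0.00521; −0.44, 0.0137 without a filter), scaled to the nuclear total (−0.36, 0.0161) and with quantile normalisation (−0.42, 0.00810), and lay between −0.20 and −0.11 when 1 library was left out.

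Leaving out 1 library, the difference in class share ran from 11.9 to 16.1 percentage points for fibrillar, −16.4 to −11.4 for network and −0.934 to 0.0332 for beaded chains. Depth is unknown, so no counting error can be given for low levels.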
